A study of Arabidopsis thaliana with 12 samples.

Results

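AT4G29890 is an Arabidopsis thaliana gene annotated as choline monooxygenase-like, of the Rieske type, and its transcript was followed here in cultured cells given water or cytokinin. It is 1 gene, measured by 1 of the 3439 features of the array table, feature 2062, which was taken because its platform annotation names this gene alone. No feature with several genes lists it (0 of 870). The gene was selected on its measured difference between cytokinin and water in these same arrays, so that difference is described below without a test. Wild-type cell culture of the ecotype Columbia 0 was used throughout: 6 arrays came from culture treated with water and 6 from culture treated with cytokinin for 2 h, and total RNA was hybridized. Another label calls the control untreated. Its duration, the cytokinin given, the kind of array and the sequence that feature 2062 carries are not stated in the sources used here. Replicates are numbered 1 to 6 within each treatment, and nothing in the labels says that they are separate cultures, so the spread between them may be technical.

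Choline monooxygenase is known from spinach and related plants, where it sits in the plastid stroma and oxidizes choline to betaine aldehyde with electrons from ferredoxin. Betaine aldehyde dehydrogenase then makes glycine betaine, a solute that accumulates under salt and drought stress. Its active centre pairs a Rieske iron-sulfur cluster with a mononuclear iron, as in the plant oxygenases that make chlorophyll b and break down chlorophyll. Arabidopsis does not normally accumulate glycine betaine, and what the choline monooxygenase-like protein does there is not established. Cytokinin, a hormone that promotes cell division and greening in plants, is sensed by histidine kinases that act through a phosphorelay on response regulators in the nucleus.

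The transcript level of AT4G29890 was higher in every cytokinin array than in any water array. In water, its intensity as deposited was 3.24, 3.05, 2.87, 2.71, 2.75 and 2.83 on arrays 1 to 6, and in cytokinin it was 4.54, 4.18, 4.17, 3.95, 3.83 and 4.02. The lowest cytokinin array, number 5, thus lay above the highest water array, number 1, and number 1 was the highest array of both groups. After quantile normalization, which gives all arrays the same distribution of intensities, the water arrays read 3.17, 3.06, 2.87, 2.69, 2.79 and 2.86 and the cytokinin arrays 4.52, 4.14, 4.08, 3.94, 3.79 and 3.94. The groups stayed apart by 0.26 on the log2 scale, a little more than the range of the water arrays (0.24) and of the cytokinin arrays (0.25). Such a separation upward was seen for 1.49% of the 3091 features tested.

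**Figure D1:**
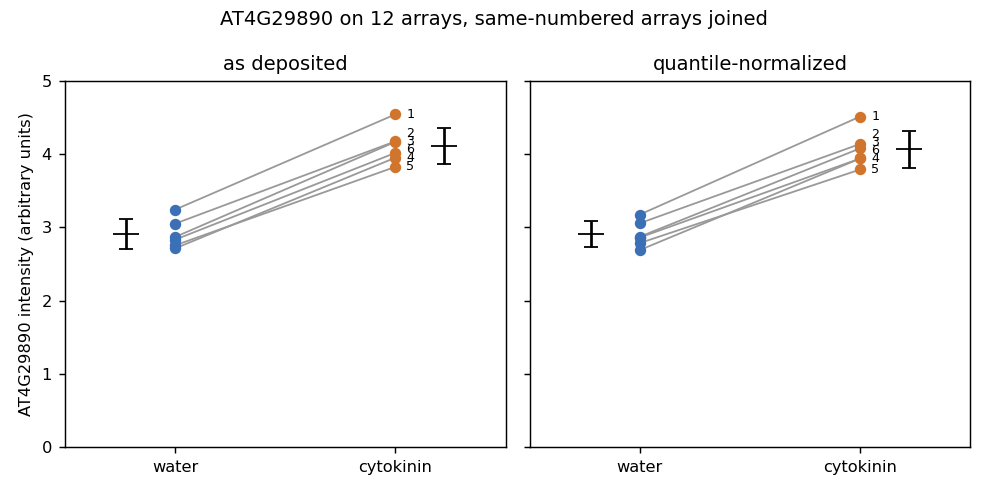
Intensity of AT4G29890 (arbitrary units, axis from 0) on each of the 12 arrays, as deposited on the left and after quantile normalization on the right. Points are arrays, grey lines join arrays with the same replicate number (printed beside the cytokinin points), and the bars beside them give the group mean and SD of 6 arrays; no cytokinin point is as low as a water point.

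Mean normalized intensity was 2.91 ± 0.178 in water and 4.07 ± 0.251 in cytokinin (SD, n = 6 arrays per group). That is a log2 difference of 0.49 with a standard error of 0.058, or 1.40-fold. Among the features tested it was the ninth difference from the top, and among the 613 of them with exactly 1 gene the third, where the median feature had 0.003 and the central 90% lay between -0.19 and 0.20. Of all features tested, 1.55% (48) passed an adjusted p of 0.05 for this comparison (limma), 1.1% with a higher level in cytokinin. Taking same-numbered arrays as blocks, these shares were 11.7% and 6.47%. AT4G29890 is within all 4 groups of calls, from which nothing is read because this contrast chose it. As 1 RNA pool was measured per array, more transcript per cell and more cells that express the gene cannot be told apart.

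The difference was of much the same size in each pair of arrays with the same replicate number. On the normalized log2 scale the pair differences were 0.51, 0.44, 0.51, 0.55, 0.44 and 0.46 for numbers 1 to 6, a mean of 0.49 with an SD of 0.044. The corresponding ratios ran from 1.35 in number 2 to 1.47 in number 4. All 6 pairs therefore showed the higher level in cytokinin, as they did for 10.1% of the features tested. For the median feature the SD of the pair differences was 0.124, and 3.04% of features had a smaller one than AT4G29890. The spread within a group was also small for AT4G29890, with a pooled SD of 0.087 against a median of 0.166. Selection on this contrast favours a small spread, and the floor applied to dim features compresses theirs, so these ranks are descriptions only.

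**Figure D2:**
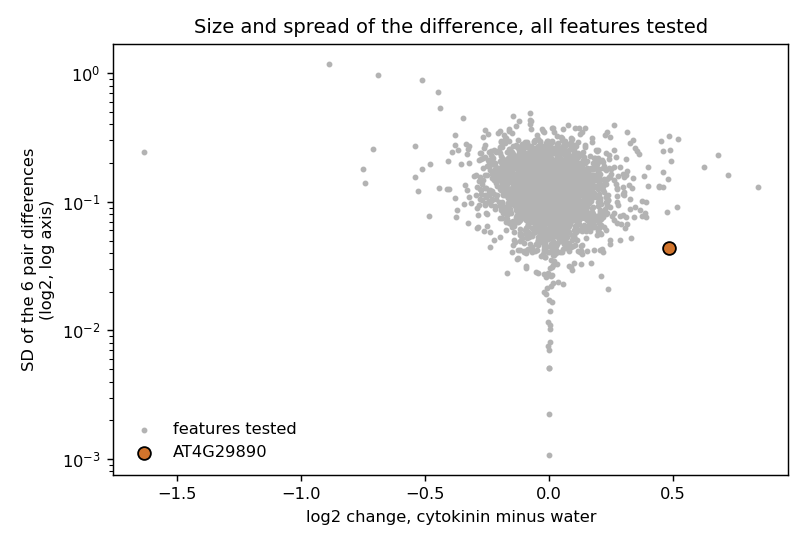
Log2 difference between cytokinin and water (horizontal) and SD of the 6 pair differences (vertical, log axis) for the 3091 features tested; each point is a feature. AT4G29890 is at 0.49 with an SD of 0.044, below the median SD of 0.124. The intensity of the features is not shown.

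The scaling of the arrays changed how large the difference was but not its direction in any pair. Without normalization the pair differences averaged 0.50 ± 0.036 (SD, n = 6 pairs). After each array was scaled to the same median they averaged 0.60 ± 0.028, with 0.55 in number 2 the lowest and 0.63 in number 3 the highest. In that scaling the level in cytokinin was 1.52-fold that in water, against 1.41-fold on the deposited values. The arrays themselves differed between the groups: median intensity was 0.724 to 0.744 in water and 0.674 to 0.693 in cytokinin, while 18.5 to 19.6% of the total lay in the 34 brightest features in water and 21 to 21.7% in cytokinin. The part of these array differences in the result was not tested. Across features the median log2 difference was -0.07 as deposited and 0.02 after median scaling, and AT4G29890 stood above it by 0.57 and 0.58, compared with 0.48 after quantile normalization. The direction of calls over the whole array was open to the same choice, since 70.8% of calls were higher in cytokinin after quantile normalization, 39.1% as deposited and 82.4% after median scaling.

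**Figure D3:**
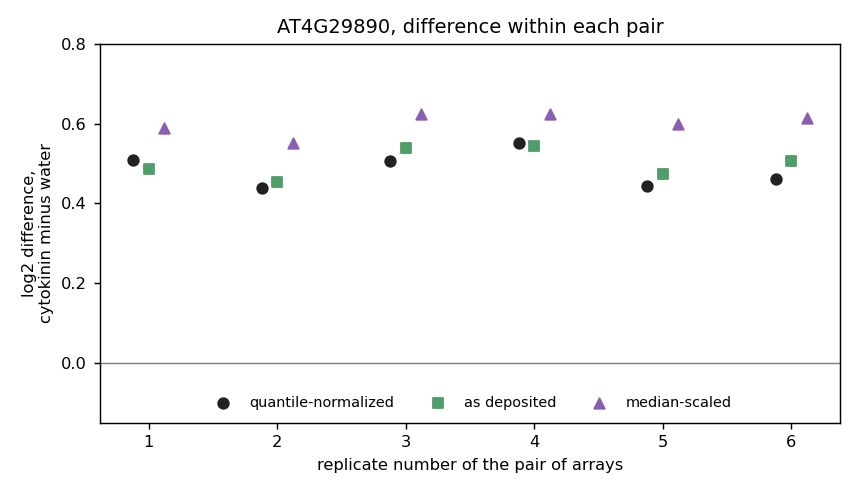
Log2 difference of AT4G29890 between the cytokinin and the water array of each replicate number, under 3 scalings. Circles are quantile-normalized values (mean 0.49), squares values as deposited (0.50) and triangles median-scaled values (0.60); every pair is above 0 in each scaling.

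The level of this transcript also varied with the replicate number, by less than between the treatments and without passing the threshold. Averaged over both treatments, its log2 level in number 1 was above that in numbers 2, 3, 4, 5 and 6 by the following steps, given as the other number minus number 1: -0.09, -0.15, -0.22, -0.22 and -0.17. In 5 of the 6 numbers the water array and the cytokinin array deviated from their group means in the same direction. Same-numbered arrays deviated together over the whole table, and the count was not made for other features. In number 1 these deviations were 0.13 in water and 0.15 in cytokinin. Number 3, the exception, lay close to both means, at -0.01 and 0.01. A moderated F test of the number, with treatment as the other term, gave an adjusted p of 0.0626 (limma, over 3091 features), just short of the threshold. Its F of 3.70 was below the median of 5.66 over all features tested, and 60.3% of features passed the threshold. This number effect is separate from the difference between treatments, although a gene picked for a clear treatment difference tends to have little spread of other kinds. The call changed with the processing: the adjusted p fell to 0.0358 on the deposited values, to 0.0341 with a higher floor, to 0.0166 with a pseudocount in place of the floor and to 0.0395 with an intensity trend in the variance. With the features at the floor kept it was 0.0115. It stayed above the threshold after median scaling (0.0518), with a lower floor (0.0812) and with the trend along the feature numbers removed (0.112). Without both arrays numbered 1 it was 0.297, and it ran from 0.053 to 0.0749 when any other number was left out.

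Features that neighbour feature 2062 in the numbering of the table had smaller differences, as did 99.7% of all features tested. The 8 nearest features tested, between 2055 and 2068, had log2 differences from -0.06 to 0.21 with a median of 0.03, beside a median of 0.003 over all features tested. None of them has exactly 1 gene. A running median over 51 neighbouring features amounted to 0.02 of the difference of AT4G29890, and 0.46 remained after it was removed. The sources used here do not say whether the numbering follows the layout of the array. At its lowest array AT4G29890 read 10.4 times the floor below which intensities were not distinguished, and its highest value, 4.54, was far below 100, the highest value listed for any feature.

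Transcripts of the chemistry around choline monooxygenase were looked for as well. Of 63 genes in 6 lists, 1 is the only gene of a feature. The lists hold 13 genes of choline and phosphocholine supply, the 2 betaine aldehyde dehydrogenase genes, and 8 genes of Rieske-type oxygenases and Rieske proteins. They also hold 11 genes of ferredoxins and ferredoxin reductases, 12 of glycine and serine one-carbon supply, and 17 type-A response regulators and cytokinin oxidases. The type-A response regulators in this last list are the usual early markers of a cytokinin response. None of the 63 occurs on a feature with several genes either. The genes of these lists other than AT2G04700 are not analysed here, so the cytokinin treatment was not checked against its known marker genes. Markers of the cell culture itself were not examined. Searching the gene names and synonyms for oxygenase, ferredoxin, iron-sulfur, choline or betaine matched 0 features with 1 gene. It missed even those of AT4G29890 and AT2G04700, so it cannot show that other such genes are absent.

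AT2G04700, the gene measured from the lists, encodes the catalytic subunit of ferredoxin-thioredoxin reductase, which passes electrons from ferredoxin to thioredoxins in the plastid. Its normalized intensity in water was 0.720, 0.702, 0.640, 0.692, 0.483 and 0.484 on arrays 1 to 6, and in cytokinin 0.723, 0.745, 0.696, 0.665, 0.643 and 0.562. The groups overlapped, and arrays 5 and 6 were the low ones of both. The log2 difference was 0.13 (SE 0.12), with an adjusted p of 0.916 in the fit without a block and 0.187 with the replicate block (limma). On the values as deposited the difference was 0.03. The normalized level was higher in cytokinin in 5 of 6 pairs. The neighbours of AT4G29890 in the genome, PIRL7 on one side and ACA10 on the other by the RefSeq table, are not the only gene of any feature and were not analysed here.

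The genes whose levels ran most nearly parallel to AT4G29890 were sought among the other 612 features with exactly 1 gene that were tested. Pearson's r over the 12 arrays was highest for CSLA01 (0.94), a cellulose synthase-like gene of the mannan synthase family, followed by AT2G28660 (0.89), FZL (0.89), a dynamin-related gene of chloroplast membranes, AT2G33180 (0.88) and AT3G57630 (0.87). It was lowest for TCP15 (-0.91), a transcription factor gene of the TCP family, AT1G67930 (-0.90) and LPA19 (-0.89), a gene of photosystem II assembly. Over all 612 the median r was -0.01, and the central 90% ran from -0.57 to 0.58. The 12 arrays share the contrast between the treatments, which enters every r. With the group means removed, the r of FZL with AT4G29890 was 0.03, and that of AT2G28660 was 0.07. It was 0.63 for CSLA01, 0.68 for AT3G57630 and 0.43 for AT2G33180, and -0.73 for TCP15 and -0.48 for LPA19, all inside the central 90% of the 612 genes on that measure (-0.76 to 0.78). AT1G67930, at -0.85, lay below it.

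CSLA01 had a normalized intensity of 0.384 ± 0.0298 in water and 0.498 ± 0.0318 in cytokinin (SD, n = 6), a log2 difference of 0.38. AT2G28660 went from 0.406 ± 0.0246 to 0.565 ± 0.0455 (SD, n = 6), a difference of 0.48 that is close to that of AT4G29890. FZL had 1.62 ± 0.0759 and 2.02 ± 0.1 (SD, n = 6), a difference of 0.32. The differences of AT2G33180 and AT3G57630 were smaller, 0.24 and 0.20. TCP15 was at 0.642 ± 0.0509 in water and 0.515 ± 0.0474 in cytokinin (SD, n = 6), a log2 difference of -0.32, and those of AT1G67930 and LPA19 were -0.37 and -0.23. CSLA01, AT2G28660, AT3G57630 and LPA19 were dim, with lowest arrays at 0.354, 0.368, 0.374 and 0.398 beside the floor of 0.258. On the values as deposited, the r of AT3G57630 with AT4G29890 was 0.68. All 5 genes with a high r were higher in cytokinin in 6 of 6 pairs, and the 3 with a low r in 0 of 6, which their choice by likeness to AT4G29890 brings about.

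A different set of genes followed AT4G29890 within the treatments. Over the 12 deviations from the group means, r was highest for AT4G39570 (0.92), AT2G25870 (0.89), AT2G03140 (0.87), NTRC (0.86), the plastid NADPH-dependent thioredoxin reductase C, and AT2G35450 (0.86). For the median gene it was -0.16, with the central 90% between -0.76 and 0.78, so large values of either sign were common. Same-numbered arrays deviated together over the whole table, which all these points share. Over the 12 arrays with the treatments left in, the r of these 5 genes with AT4G29890 lay between -0.09 and 0.18. Their own differences between treatments were -0.12, -0.16, -0.16, -0.13 and -0.06, none past the threshold without a block (limma, adjusted p from 0.869 to 0.999). With the block AT2G25870 passed (adjusted p = 0.0372). With the trend along the feature numbers removed, the r of AT4G39570 was -0.11, while those of the other 4 stayed above 0. Without both arrays numbered 1, the r of the 5 genes, in the order given, was 0.80, 0.80, 0.79, 0.66 and 0.78. Only 1 of the 5 was then picked again. All 5 passed the threshold for the number effect (moderated F, adjusted p from 3.8e-05 to 0.005), unlike AT4G29890 (0.0626).

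**Figure D4:**
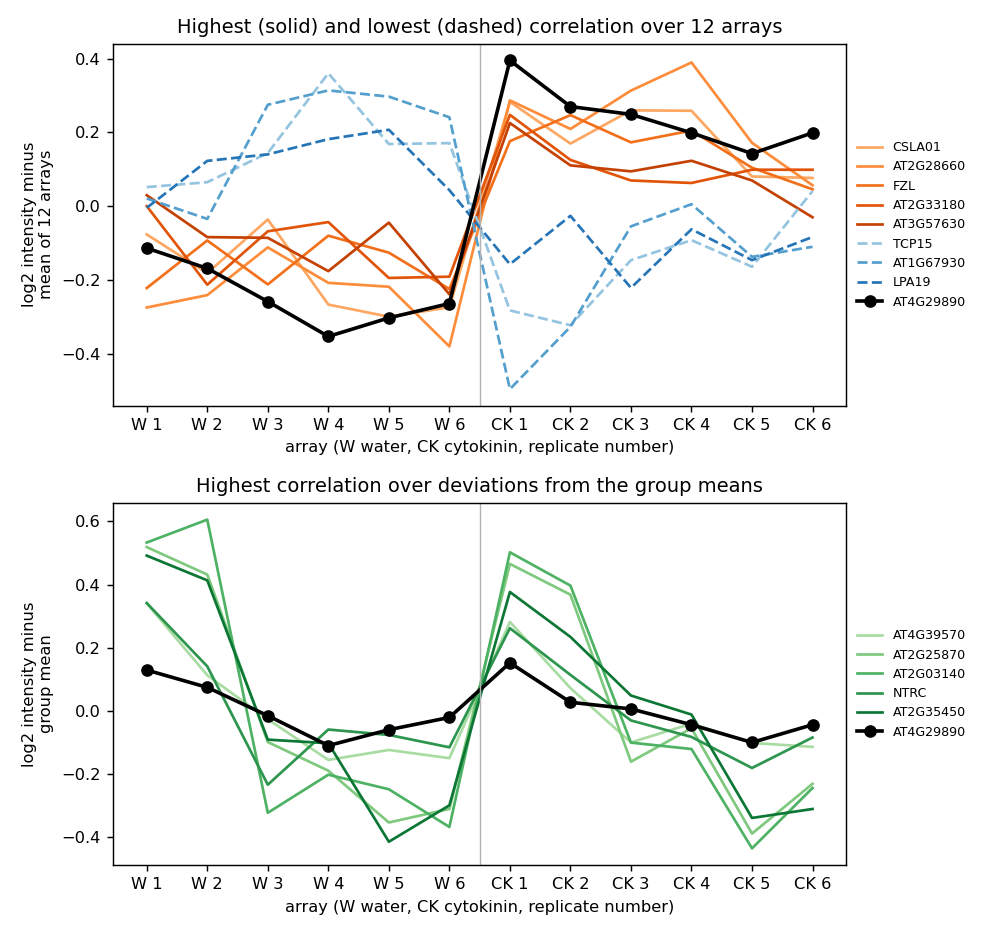
Log2 levels of AT4G29890 (black) on 12 arrays beside the genes most like it, with lines only to guide the eye. The upper panel (levels minus the mean of 12 arrays) shows the 5 genes of highest r, from CSLA01 at 0.94, and the 3 of lowest r, from TCP15 at -0.91; the lower panel (levels minus the group mean) shows the 5 genes of highest r over deviations, from AT4G39570 at 0.92, which are high in numbers 1 and 2 of both groups.

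The difference in AT4G29890 was also computed with arrays left out. These values are descriptions only, since the choice of the gene on this contrast favours a stable difference. Leaving out 1 array at a time gave log2 differences from 0.45 to 0.51, and leaving out both arrays of a number from 0.47 to 0.49. With numbers 1 and 2, 3 and 4, and 5 and 6 averaged, the 3 differences were 0.47, 0.53 and 0.45. The labels do not state this grouping, which came from earlier results of these data. On these means the standard error without a block was 0.089. The range over all 28 other settings was 0.42 to 0.60. The lower end came from adding a pseudocount of 0.5 before the log2 step, which shrinks differences, and the upper end from median scaling.

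**Figure D5:**
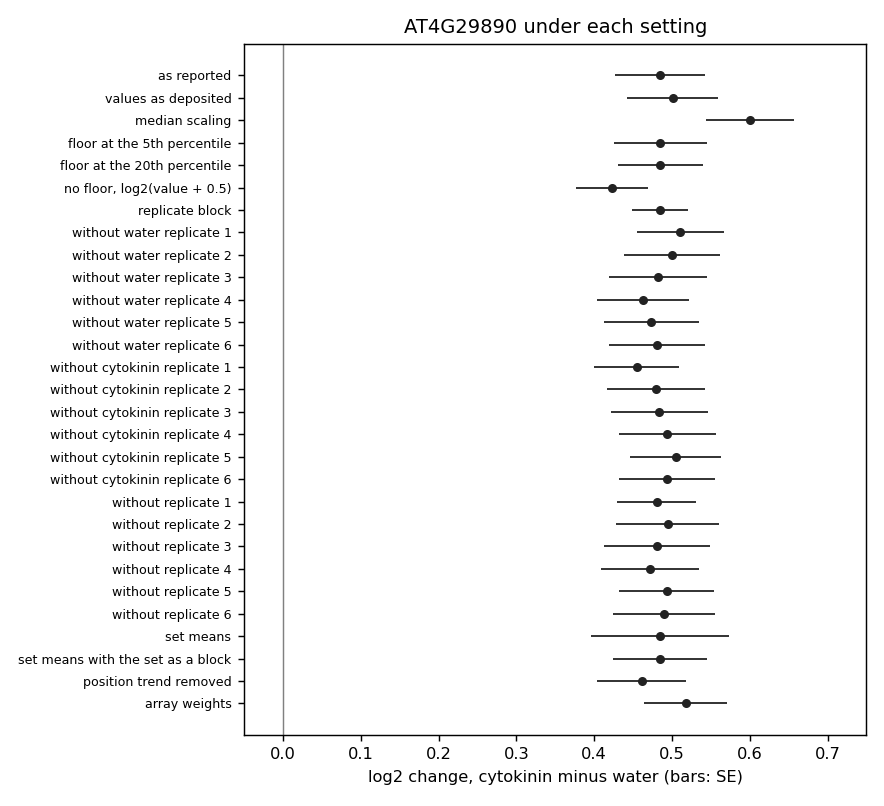
Log2 difference of AT4G29890 between cytokinin and water (horizontal) with its standard error, as reported and under each of 28 other settings (vertical); set means are averages of numbers 1 and 2, 3 and 4, and 5 and 6. All values lie between 0.42 and 0.60.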

How the data were processed

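The authors deposited hybridization intensities on a linear scale for 3439 features on 12 arrays, per the file headers one column per array; their scaling and background correction are not given in the sources used here. Totals per array ran from 3743 to 3875. Precision is limited by the number of arrays and by how many separate cultures they represent, which the labels do not state. Features were named through the platform annotation and the RefSeq genes of TAIR10.1 (690 of 692 features with 1 gene matched; 870 have several and 1877 are unnamed here). Coordinates are left out, since no build is named.

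Intensities were quantile-normalized, set to at least 0.258, the 10th percentile of all values above 0, and put on the log2 scale; the 348 features at that floor on every array were dropped. Groups were compared with limma 3.58.1 in R 4.3.3 (lmFit, eBayes, two-sided, Benjamini-Hochberg over 3091 features, threshold 0.05), without a block, and the replicate number was tested by a moderated F. The fits, with and without the block, and the F test were also run on simulated data, with results not given here. Plots were drawn with matplotlib 3.10.9. Deviations of same-numbered arrays from their group means correlated at 0.83, 0.84, 0.71, 0.7, 0.81 and 0.82, and 12 of 12 arrays matched best with their own number, so same numbers were treated as pairs; this rests on the data, since the labels state no pairing.

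Genes named are AT4G29890, the 5 highest and 3 lowest r over 12 arrays, the 5 highest over deviations, and list genes measured (all where at most 4 are, otherwise the 4 with the largest differences). The gene and lists were chosen with earlier results of these data known. Other settings tried were scaling, floor, pseudocount, dim features kept, the block, arrays left out, set means, a running median over 51 features, variance trend, array weights, a fold minimum and Spearman's rho.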

Additional observations from a re-analysis of the deposited data

Results flagged for a closer look

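Among 15 genes named, each examined in both groups of 6 arrays (30 groups of values), 1 array stood apart. AT2G33180, one of the genes of high r with AT4G29890, read 3.9 on cytokinin array 1 against 3.43 to 3.58 on the other cytokinin arrays, and on the log2 scale this gap took up 0.662 of the group's range. Chance alone puts about 1 in 20 groups past such a limit. AT4G29890 itself had no array so far from the others in either group.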

How the results depend on the processing

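The log2 difference of AT4G29890 kept its sign in all 28 other settings, which its choice on this contrast favours. It moved by more than the spread between replicates in 1, median scaling (0.60). The other floors, the replicate block and the set means could not move it, since the gene lies above each floor and the groups are balanced. The replicate block lowered the standard error of the difference from 0.058 to 0.036. The number effect (adjusted p = 0.0626) passed the threshold in 5 of 26 settings, with 0.0358, 0.0341, 0.0166, 0.0395 and 0.0115 as given above; leaving out arrays gave 0.053 to 0.297. The 48 calls became 361 with the replicate number as a block, 6 when at least 1.5-fold was asked for, 76 under array weights and 85 after median scaling. Leaving out 1 array gave 32 to 43 calls and both arrays of a number 14 to 26. Means of the numbers 1 and 2, 3 and 4, and 5 and 6 gave 0 calls without a block (limma; 99 at an unadjusted p of 0.05). Blocking these means by set gave 41 calls. Of the 8 genes picked for likeness over 12 arrays, 5 were picked again with the position trend removed and 5 with Spearman's rho, and 6 to 8 when arrays were left out. Of the 5 picked over deviations, 3 were picked again on the deposited values, 2 after median scaling, 2 with the position trend removed, 3 with Spearman's rho and 1 to 4 when arrays were left out, so which genes head that ranking depends on the setting. AT4G39570 alone turned its sign, to -0.11 with the position trend removed. AT2G04700 missed the threshold in all 4 other settings. The causes of these changes were not tested. Set means with a block and leaving out numbers for the F test were chosen after seeing the data.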
